A study of Mus musculus with 2 samples.

Results

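Total RNA of mouse common myeloid progenitors (CMP) was read for 37 genes of the autophagy machinery, chosen by symbol and found through their gene identifiers among 43346 mouse genes in the gene tables, 21461 of them nuclear and protein-coding. CMP are bone marrow cells that give rise to granulocytes, monocytes, red cells and platelets. The series holds 1 group of 2 libraries, replicate 1 and replicate 2. Each library was made from a pool of 100 primary CMP of male C57BL/6J mice aged 5 to 6 weeks, with no treatment or allele in the labels, and RNA over 200 nucleotides was kept. There is no second condition, so genes were set against each other within CMP, and replicate 1 was set against replicate 2. The labels name the libraries biological replicates with separate biosamples but 1 donor identifier, so every error covers the spread between these pools alone.

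Autophagy encloses cytoplasm in a double membrane, the autophagosome, and delivers it to lysosomes for breakdown. A kinase complex around ULK1 starts the process, a lipid kinase complex around Beclin 1 marks the membrane, and ATG9 and ATG2 supply lipid. Enzymes related to the ubiquitin system then attach ATG8 proteins (the LC3 and GABARAP families) to the membrane, where cargo receptors bind them. In blood formation the pathway is known for removing mitochondria from maturing red cells and for maintaining stem cells.

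Replicate 1 held 28916263 expected counts and replicate 2 held 26426710. A gene at 0 counts was limited to 0.104 counts per 1000000 in replicate 1 and 0.114 in replicate 2 (3 counts of the total), a floor for counting error alone, since the reads carry no molecular identifiers. Among 10 genes of the CMP gate and of myeloid progenitors, 7 reached 1 TPM (transcripts per 1000000) in both libraries. They included Mpo, a granule enzyme of myeloid progenitors, at 385.9 and 386.1 TPM and Kit, the stem cell factor receptor, at 98.1 and 92.9. Others of the list differed between the libraries, with Fcgr3 at 0.64 and 4.27 TPM, Fcgr2b at 2.48 and 9.59, Gata2 at 54.8 and 88.4 and Cd34 at 74.5 and 55.4. Ly6a and Il7r, which the CMP gate leaves out, had 0 counts in both libraries. Of markers of other cells, 5 of 12 macrophage and monocyte genes, 5 of 8 maturing red cell genes, 2 of 8 neutrophil, 2 of 8 stroma and endothelium and 1 of 8 lymphoid genes reached 1 TPM in both. The summed macrophage and monocyte list was 69.8 TPM in replicate 1 and 57.2 in replicate 2, with C1qa, C1qb and Cd14 at 0 counts in both and Adgre1, the F4/80 antigen, at 1 and 0 counts. Other genes of that list had more counts in replicate 1, with Csf1r at 840 and 378, Ly6c2 at 398 and 206, Cd68 at 227 and 88, Cd163 at 106 and 22 and C1qc at 33 and 0. Lyz2, at 341 and 559 counts, and Ccr2, at 198 and 586, had more in replicate 2. The summed red cell list was 82.6 and 84.7 TPM, with Alas2 at 0 counts in both. Their part in the levels given here was not tested. In pooled cells, a gene on in few cells and a gene at a low level in every cell cannot be told apart.

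Almost the whole pathway was detected. Of the 37 genes, 34 reached 1 TPM in both libraries, or 91.9%, against 44.9% of all nuclear protein-coding genes. Atg10, Map1lc3a and Tfeb did not, and each reached 1 TPM in a single library. The median of the 37 genes was 13.4 TPM in replicate 1 and 11.5 in replicate 2 (12.5 ± 1.32, SD, n = 2). Over all nuclear protein-coding genes the medians were 0.32 and 0.56 TPM, and over the 9627 such genes detected in both libraries they were 13.2 and 13.5. By whole-gene TPM the autophagy genes thus lay at the middle of the detected genes. Over protein-coding transcripts alone the medians of all 37 genes were 7.96 and 8.06 TPM. Over the 9011 protein-coding genes that reached 1 TPM on that scale in both libraries they were higher, at 10.47 and 10.96. These sets are unlike, since only 34 of the 37 genes reached 1 TPM on that scale in both libraries. By mean TPM, 1 gene was at 100 or more, 11 were between 20 and 100, 18 between 5 and 20 and 7 between 1 and 5. Gabarap, an ATG8 protein, ranked highest and lay above 98.3% of nuclear protein-coding genes, followed by Lamp1, Nbr1, Sqstm1 and Atg4b. Tfeb ranked lowest, although its posterior mean TPM, another estimate the authors deposited, averaged 3.13, above Atg10 at 2.33 and Map1lc3a at 1.58.

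**Figure D1:**
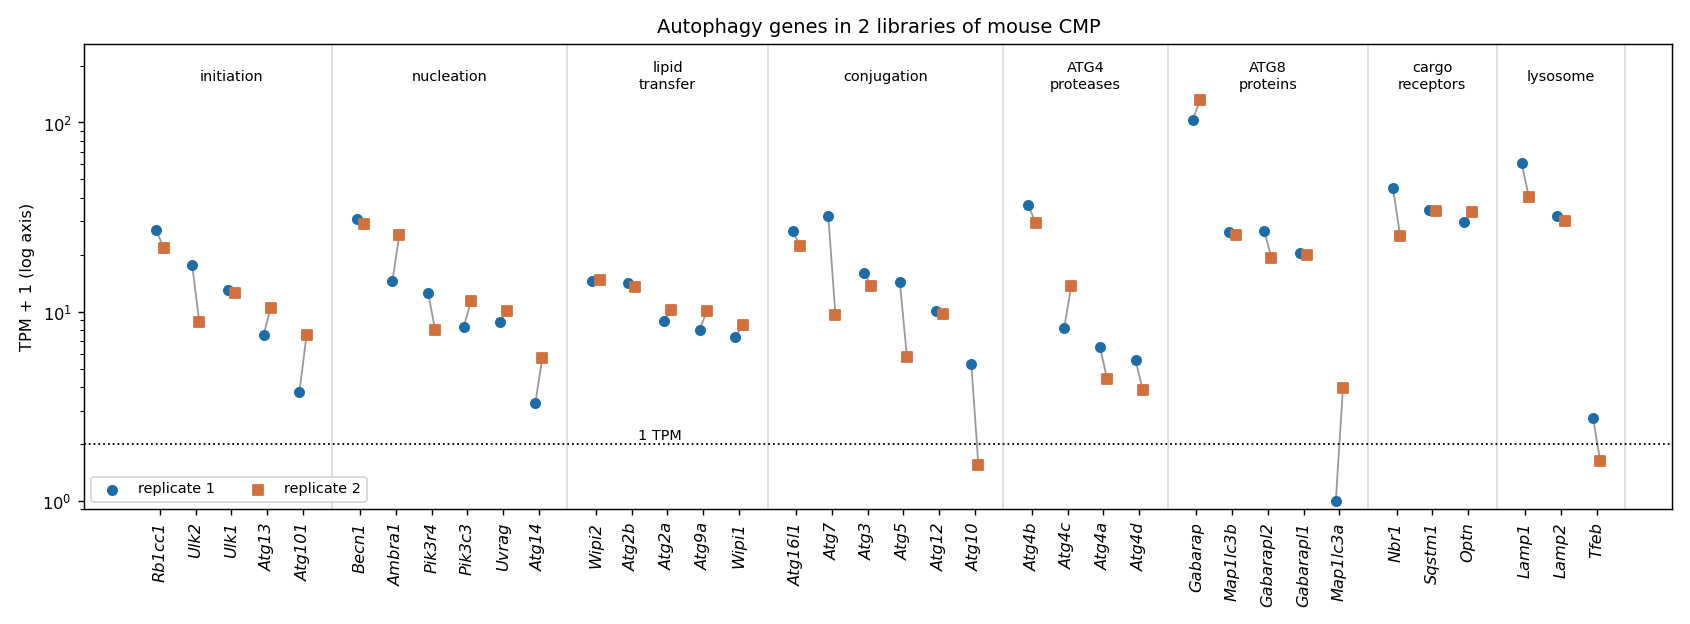
TPM plus 1 on a log axis for each of the 37 genes in replicate 1 (circles) and replicate 2 (squares), grouped by step of autophagy and ordered by mean TPM within a step; the dotted line marks 1 TPM. Gabarap stands at 102 and 130.2 TPM, and Map1lc3a, Atg10 and Tfeb each have 1 library under the line.

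The libraries differed for most of these genes beyond counting error, as they did for most genes. An exact binomial test on rounded counts (two-sided, TMM-scaled in edgeR, Benjamini-Hochberg over 13616 genes) called 15 of the 37 higher in replicate 1, where 37.5% of all genes tested were called higher, and 14 lower, where 40.7% were. The share called was therefore close to that of all genes. With scaling by total counts, which moved the median log2 ratio of all genes to -0.23 against -0.03, the split was 8 higher and 18 lower, or 21.6% and 48.6% of the 37, against 26.7% and 52.6% of all genes. That binomial test sees only the counts of a pair of libraries. In edgeR's exact test at the common dispersion, 0 genes were called, members included, and 1 member had an unadjusted p under 0.05. That dispersion was estimated from the same 2 libraries taken as 1 group, so the difference under test set its size. The test could thus hardly call a gene, and it cannot decide which genes differ. In the marker lists the binomial test called 5 of 8 macrophage and monocyte genes higher in replicate 1 and 3 lower, and 1 of 8 CMP gate and progenitor genes higher and 5 lower. Differences were mostly small, since 27 of the 37 genes lay within 1.5-fold (54.0% of all genes tested) and 5 differed 2-fold or more (30.2%). All genes tested include those with few counts. The median absolute log2 ratio was 0.34 for the 37 genes and 0.36 for nuclear protein-coding genes detected in both libraries. By that measure these genes were close to other detected genes. In the authors' deposited TPM intervals, of a confidence level that the sources used here do not give, replicate 1 lay above replicate 2 in 11 of the 34 detected genes (30.0% of all detected protein-coding genes). Replicate 2 lay above in 8 (31.8%), and the intervals overlapped in 15. A deposited interval does not always hold the deposited TPM, as given below for Tfeb and Lamp1.

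At initiation, RNA of all 5 genes of the ULK complex was detected in both libraries. The complex joins the kinases ULK1 and ULK2 to the scaffolds FIP200 (gene Rb1cc1), ATG13 and ATG101. Rb1cc1 had 25.9 TPM in replicate 1 and 20.6 in replicate 2, the highest of the 5 by whole-gene TPM. Over protein-coding transcripts it had 9.44 and 11.3 TPM, below Ulk1. Ulk1 had 12.0 and 11.5 TPM, and its 1250 and 1195 counts were not called different. Ulk2 had 16.6 and 7.77 TPM, so the order of the kinases differed between the libraries. Ulk1 over Ulk2 gave a log2 ratio of 0.04 on TPM plus 1 (SE 0.81, limma, adjusted p = 0.977), with a 95% interval of -0.95 to 1.03, in a fit that called 27.6% of all genes against Ulk2. Over protein-coding transcripts alone the kinases stood at 12.0 and 11.5 TPM for Ulk1 and 6.38 and 6.20 for Ulk2. The ratio was then 0.81 (limma, fit of the ratios alone, adjusted p = 0.0344), and the spread of both genes was not tried there. Atg13 had 6.55 and 9.51 TPM. Atg101, the subunit with the fewest counts, had 61 and 143 counts and 2.74 and 6.53 TPM. Its scaled counts were 2.29-fold lower in replicate 1 (adjusted p = 3.6e-08, exact binomial test).

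At nucleation, Beclin 1 (Becn1) was the most abundant subunit of the lipid kinase complex at gene level. Becn1 had 29.8 TPM in replicate 1 and 28.2 in replicate 2. The kinase VPS34 (Pik3c3), which makes phosphatidylinositol 3-phosphate, had 7.34 and 10.3 TPM. Its anchor VPS15 (Pik3r4) had 11.6 and 6.98 TPM. ATG14, which directs the complex to autophagosome formation, had the lowest level, with Atg14 at 2.27 and 4.72 TPM. Uvrag, which takes the place of ATG14 in complexes on endosomes, had 7.78 and 9.11 TPM, above Atg14 in each library. Ambra1, a regulator that binds Beclin 1, had 13.5 and 24.5 TPM, with no overlap between the deposited intervals.

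Each of Pik3c3, Pik3r4, Atg14 and Uvrag was lower than Becn1, in a fit that called 83.0% of all genes. The log2 ratios were -1.62, -1.58, -2.79 and -1.67 in that order (limma, adjusted p = 0.00039, 0.00046, 4.1e-05 and 0.00031). All 4 also passed with the spread of both genes in the error, at adjusted p between 0.00064 and 0.0054. Ambra1 over Becn1 was -0.64 and passed in the fit of the ratios alone (limma, adjusted p = 0.041, against 0.119 with the spread of both genes). These results rested on transcripts that are not annotated as coding. Only 31.0% of the TPM of Becn1 in replicate 1 and 11.5% in replicate 2 came from protein-coding transcripts, or 9.22 and 3.26 TPM. Over protein-coding transcripts alone, all 5 ratios to Becn1 missed the threshold, and those of Pik3r4, Uvrag and Ambra1 changed sign to 0.10, 0.51 and 0.49.

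The deposited TPM intervals of the libraries overlapped for all 5 genes of the lipid transfer step. ATG2A and ATG2B are rod-shaped proteins that carry lipid between membranes, ATG9A is the scramblase of the seed vesicles, and WIPI proteins bind phosphatidylinositol 3-phosphate. Atg2b had 13.2 TPM in replicate 1 and 12.5 in replicate 2. Atg2a had 7.96 and 9.22 TPM. The log2 ratio of Atg2a over Atg2b was -0.54 (limma, adjusted p = 0.168, 95% interval -1.49 to 0.41), where 67.1% of all genes were called. Atg9a had 7.03 and 9.06 TPM. Wipi2 had 13.6 and 13.7 TPM, and Wipi1 had 6.34 and 7.45, so Wipi2 was the higher in both libraries. Their log2 ratio of 0.90 passed in the fit of the ratios (limma, adjusted p = 0.0201), where 65.2% of all genes were called, but not with the spread of both genes (adjusted p = 0.114). Over protein-coding transcripts, at 6.58 and 6.84 TPM for Wipi2 and 6.34 and 7.44 for Wipi1, the ratio was -0.03.

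In the conjugation step, 3 of the 6 genes differed widely between the libraries. ATG7 activates the ubiquitin-like proteins ATG12 and ATG8, ATG10 and ATG3 pass on ATG12 and ATG8 in turn, and the conjugate of ATG12 with ATG5 joins ATG16L1 to direct ATG8 to the membrane. Atg7 had 31.0 TPM in replicate 1 and 8.55 in replicate 2. Atg5 had 13.4 and 4.77 TPM. Atg10 had 4.29 and 0.54 TPM. All 3 were higher in replicate 1, and their deposited intervals did not overlap. For Atg7 that order in TPM held for the whole gene alone, since its protein-coding transcripts summed to 6.13 TPM in replicate 1 and 8.55 in replicate 2. Of the 8.55 TPM, 3.82 lay on Atg7-204, a coding transcript of 758 bases with 46.7 counts there and 0 in replicate 1. The turned order over protein-coding transcripts thus depended on 1 short transcript. Of 8 macrophage and monocyte genes tested, 5, including Csf1r and Cd68, were called higher in replicate 1 by the binomial test. The other 3, including Lyz2 and Ccr2, were called lower. The part of these marker genes in the differences was not tested. Scaled counts of Atg5 (608 and 214) were 2.89-fold higher in replicate 1 (adjusted p = 1.1e-44), those of Atg10 (129 and 16) 7.99-fold (adjusted p = 1.1e-22) and those of Atg7 (596 and 343) 1.77-fold (adjusted p = 5.4e-17), by the exact binomial test. Atg5 and Atg10 have 1 transcript each in the deposited tables, so the mean transcript length did not enter their difference in TPM.

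Values of the other conjugation genes lay closer together. Atg3 had 15.1 and 12.7 TPM, Atg12 had 9.02 and 8.69, and Atg16l1 had 25.8 and 21.2. Atg10 over Atg3 gave a log2 ratio of -2.38 (limma, adjusted p = 2.7e-05, and 0.0077 with the spread of both genes), where 66.7% of all genes were called, and it passed under all 9 settings tried. The ratio was -1.60 in replicate 1 and -3.15 in replicate 2, so its size rests on the library, and on the pseudocount where Atg10 is near 0. Atg7 over Atg3 was 0.24 (adjusted p = 0.516, 95% interval -0.83 to 1.31), with 0.99 in replicate 1 and -0.52 in replicate 2. Against Atg5, whose own level differed so much that the fit called only 2.52% of all genes, Atg12 was at 0.11 (adjusted p = 0.968) and Atg16l1 at 1.42 (adjusted p = 0.454). Atg16l1 over Atg5 passed with the spread of both genes alone (adjusted p = 0.0308).

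Among the ATG8 proteins, Gabarap exceeded each of the others several-fold. It lies on chromosome 11 at 69991143 to 69994951 (GRCm38, plus strand). Gabarap had 102 TPM in replicate 1 and 130.2 in replicate 2 (116.3 ± 19.6, SD, n = 2) from 1872 and 2010 counts. Map1lc3b, the LC3B gene whose product is the usual marker of autophagosomes, had 25.4 and 24.4 TPM. Gabarapl1 had 19.4 and 18.9 TPM, and Gabarapl2 had 25.8 and 18.2. These 3 genes lay close together in both libraries. Map1lc3a, the LC3A gene on chromosome 2 at 155276297 to 155278073 (plus strand), had 0 counts in replicate 1 and 40 counts or 2.94 TPM in replicate 2. Measured against the floor of 3 counts per library, replicate 1 was at least 13.1-fold lower for Map1lc3a. All 40 counts were on Map1lc3a-203, an 826-base processed transcript with no annotated coding sequence. Gabarap made up 59.2% of the summed ATG8 TPM in replicate 1 and 66.9% in replicate 2, and Map1lc3b 14.7% and 12.5%.

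Against Gabarap the log2 ratios were -2.17 for Map1lc3b, -2.53 for Gabarapl1 and -2.36 for Gabarapl2, or 4.50-fold, 5.78-fold and 5.14-fold lower (limma, adjusted p = 6.8e-11, 8.4e-13 and 6.2e-12). Map1lc3a was called lower as well, with a size that depends on the pseudocount. The fit called 97.1% of all genes different from Gabarap, so a call alone says little about these 4. With the spread of both genes, adjusted p was between 6.4e-06 and 2.7e-05 for the 4 ratios. Each passed under all 9 settings, but the sizes moved. Without length correction the log2 ratios were -0.86 for Map1lc3b, -1.57 for Gabarapl1 and -2.27 for Gabarapl2. Over protein-coding transcripts they were -1.74, -2.08 and -3.95, where Gabarap stood at 67.4 and 105.1 TPM and Gabarapl2 at 1.83 and 9.80.

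ATG4 proteases trim ATG8 proteins before conjugation and release them afterwards. Atg4b, known as the main mammalian ATG4, had 35.4 TPM in replicate 1 and 28.5 in replicate 2 and made up 67.2% and 60.0% of the summed ATG4 TPM. Atg4c had 7.21 and 12.7 TPM. Atg4a had 5.53 and 3.42 TPM, and Atg4d had 4.53 and 2.83. Log2 ratios to Atg4b were -1.63 for Atg4c, -2.61 for Atg4a and -2.83 for Atg4d (limma, adjusted p = 0.00011, 5.7e-07 and 1.5e-07), where 81.8% of all genes were called, and all 3 also passed with the spread of both genes (adjusted p between 0.0005 and 0.0040). Protein-coding transcripts gave Atg4b 16.8 and 7.83 TPM, and over those alone the ratios missed the threshold, at -0.67, -1.38 and -1.45 (adjusted p between 0.233 and 0.611).

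**Figure D2:**
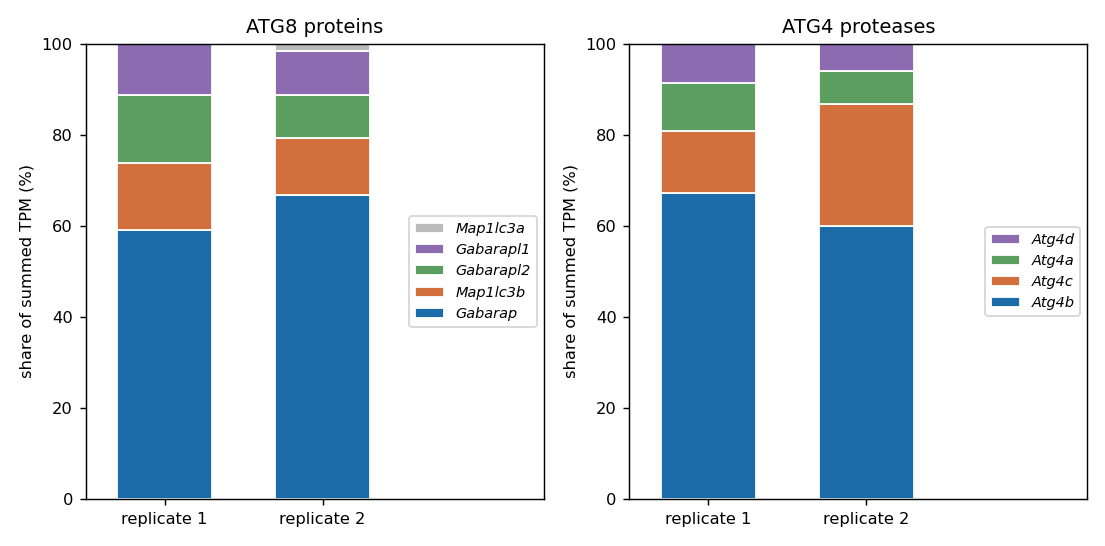
Share of the summed TPM of the ATG8 family (left) and the ATG4 family (right) taken by each gene, in replicate 1 and replicate 2. Gabarap takes 59.2% and 66.9% of its family, and Atg4b takes 67.2% and 60.0% of its own.

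The cargo receptors were all abundant. p62 (Sqstm1), NBR1 and optineurin (Optn) bind ubiquitin-tagged cargo on one side and ATG8 on the other. Sqstm1 had 33.5 TPM in replicate 1 and 32.9 in replicate 2, from 924 and 901 counts that were not called different. Optn had 28.6 and 32.4 TPM. Nbr1 had 44.0 and 24.1 TPM, the highest of the 3 in replicate 1 and the lowest in replicate 2. Optn over Sqstm1 gave a log2 ratio of -0.12 (limma, adjusted p = 0.590, 95% interval -0.78 to 0.54) and Nbr1 over Sqstm1 -0.02 (adjusted p = 0.928, 95% interval -0.75 to 0.71), where 84.4% of all genes were called. Without length correction Optn over Sqstm1 was 0.69 (limma, adjusted p = 0.00011), and over protein-coding transcripts Nbr1 over Sqstm1 was -1.07 (adjusted p = 0.0095). Both come from the fit of the ratios alone, and the spread of both genes was not tried there.

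At the lysosome, Lamp1 and Lamp2 encode the most abundant glycoproteins of its membrane, and Tfeb encodes a transcription factor that activates autophagy and lysosome genes. Lamp1 had 59.9 TPM in replicate 1 and 39.5 in replicate 2, from 2598 and 1697 counts. It was 1.56-fold higher in replicate 1 by scaled counts (adjusted p = 1.7e-45, exact binomial test). Lamp2 had 31.0 and 29.3 TPM. Lamp2 over Lamp1 gave -0.68 (limma, adjusted p = 0.152, 95% interval -1.35 to -0.001), where 81.4% of all genes were called. With the spread of both genes the adjusted p was 0.0575. Tfeb had 52 and 27 counts and 1.73 and 0.62 TPM, and a different transcript, Tfeb-212 or Tfeb-201, took all of them in each library. The authors' deposited interval for Tfeb was 2.23 to 4.83 TPM in replicate 1 and 1.51 to 4.17 in replicate 2, above the deposited TPM itself. Tfeb was not alone in this, since some other genes also lay outside their intervals. For Lamp1 the interval was 54.95 to 59.36 TPM in replicate 1 and 35.71 to 39.29 in replicate 2, just below its deposited TPM.

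The letters CACGTG, the core of the E-box motif that TFEB and related factors are known to bind, were searched in RefSeq promoter windows (build GRCm38.p6, 250 bases before to 50 after a gene's start). The motif reads the same on both strands and was searched with no other motif. Windows were held for 31 of the 37 genes, and 5 of them (Atg14, Atg3, Atg5, Atg7 and Lamp1) contained it, or 16.1% against 9.24% of 16317 protein-coding genes. The windows of Atg7 and Atg14 follow RefSeq starts and lie inside the genes as annotated in GENCODE M21. That of Atg7 begins at 114670846, where the gene starts at 114643097 (plus strand). That of Atg14 ends at 47568684, where the gene reaches 47570649 (minus strand). Lamp1 held 4 copies, which 5 genes in all reached or exceeded, and Atg3 held 2, which 0.901% of genes reached or exceeded. A match is a description of the letters and not a bound site. The 250 bases before the start are shown for Lamp1, which has the most copies, and for Atg5, which has 1 copy and differed most in counts among the genes detected in both libraries; the capitals mark the motif.
Lamp1, chr8:13158911-13159160, plus strand: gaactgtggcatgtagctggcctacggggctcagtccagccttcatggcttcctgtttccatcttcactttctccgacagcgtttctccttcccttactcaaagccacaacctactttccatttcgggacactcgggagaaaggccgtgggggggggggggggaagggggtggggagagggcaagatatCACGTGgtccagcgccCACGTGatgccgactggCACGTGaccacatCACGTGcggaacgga
Atg5, chr10:44268089-44268338, plus strand: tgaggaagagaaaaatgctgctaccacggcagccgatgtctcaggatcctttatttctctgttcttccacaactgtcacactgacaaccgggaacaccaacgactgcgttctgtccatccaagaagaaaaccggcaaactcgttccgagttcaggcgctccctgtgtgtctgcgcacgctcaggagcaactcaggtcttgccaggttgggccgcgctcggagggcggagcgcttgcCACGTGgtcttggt
In Lamp1 the copies begin 61, 45, 28 and 15 bases before the start, and in Atg5 the copy begins 14 bases before it. Neither stretch overlaps an annotated exon of its own gene in GENCODE M21.

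Of the 22 gene pairs compared within a step, 14 passed in the fit of the ratios, 13 with the spread of both genes and 12 in both. In all 12 the gene first in the pair was the lower, the other gene having been set with the levels known, and 8 of them differed 4-fold or more. They were the 3 ATG4 genes against Atg4b, the 4 ATG8 genes against Gabarap, 4 subunits against Becn1, and Atg10 against Atg3. Only 5 pairs passed under all 9 settings, the 4 against Gabarap and Atg10 against Atg3. A single setting put the spread of both genes in the error, and the others used the fit of the ratios alone. The sign was the same in both libraries for 18 of the 22 pairs. With 2 libraries an exact sign-flip test on a single pair cannot go below p = 0.5, so these calls rest on variances shared across genes.

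**Figure D3:**
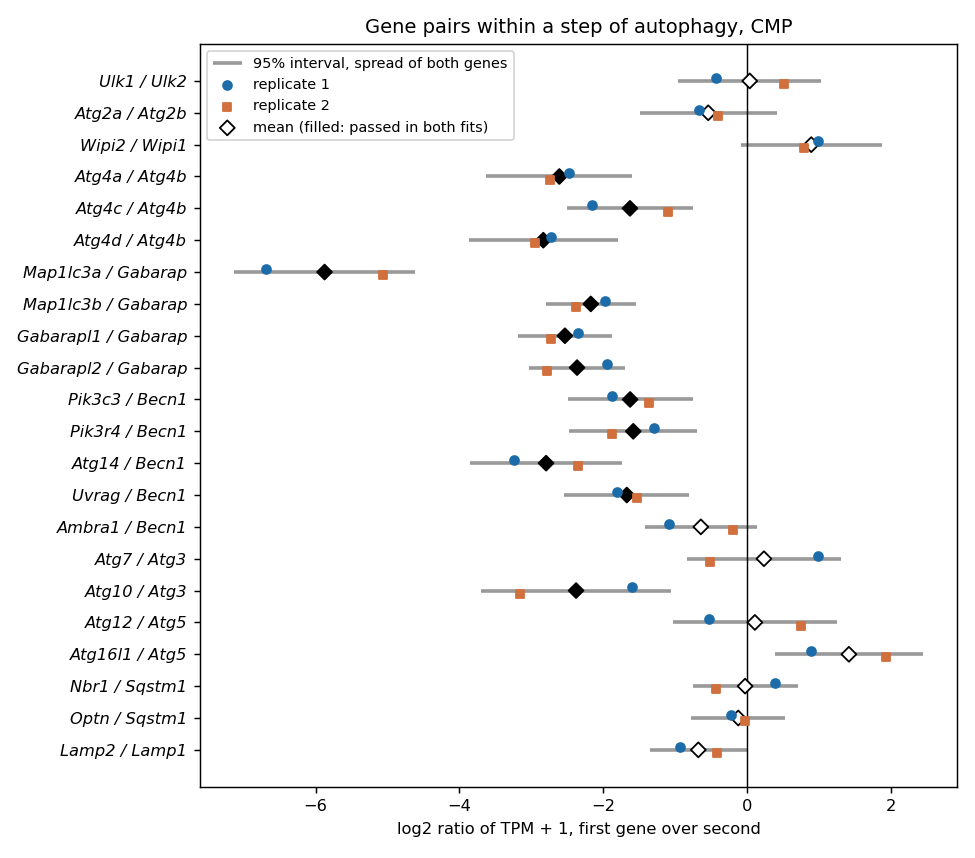
Log2 ratio of TPM plus 1 for 22 gene pairs, first gene over second, in replicate 1 (circles) and replicate 2 (squares), with the mean (diamonds, filled where both fits passed) and the 95% interval from the spread of both genes. All 12 filled diamonds lie left of 0, and the open diamonds lie between -0.68 and 1.42.

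Counts and TPM did not always order the libraries alike. In 7 of the 37 genes the log2 ratio of scaled counts and that of TPM had opposite signs, and in 9 the mean transcript length that converts one to the other differed by over 1.3-fold between the libraries. Neither was counted over all genes, so it is not known whether these numbers are usual in the 2 libraries. For Nbr1 the counts were 948 in replicate 1 and 1254 in replicate 2, the mean lengths 1192 and 2698 bases, and the TPM 44.0 and 24.1. Its log2 ratio was -0.38 by scaled counts and 0.84 by TPM. Rb1cc1 moved the same way, with 1213 and 1686 counts, mean lengths of 2422 and 4156 bases, and log2 ratios of -0.45 by scaled counts and 0.32 by TPM. In Gabarapl2 the ratios were -0.16 and 0.49. Atg2a went in the opposite sense, at 0.26 by scaled counts and -0.19 by TPM. The direction for these genes thus depended on the mean transcript length. Under total-count scaling Atg2b, called higher in replicate 1 at a log2 ratio of 0.11 (adjusted p = 0.0084), was lower at -0.09 (adjusted p = 0.028).

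**Figure D4:**
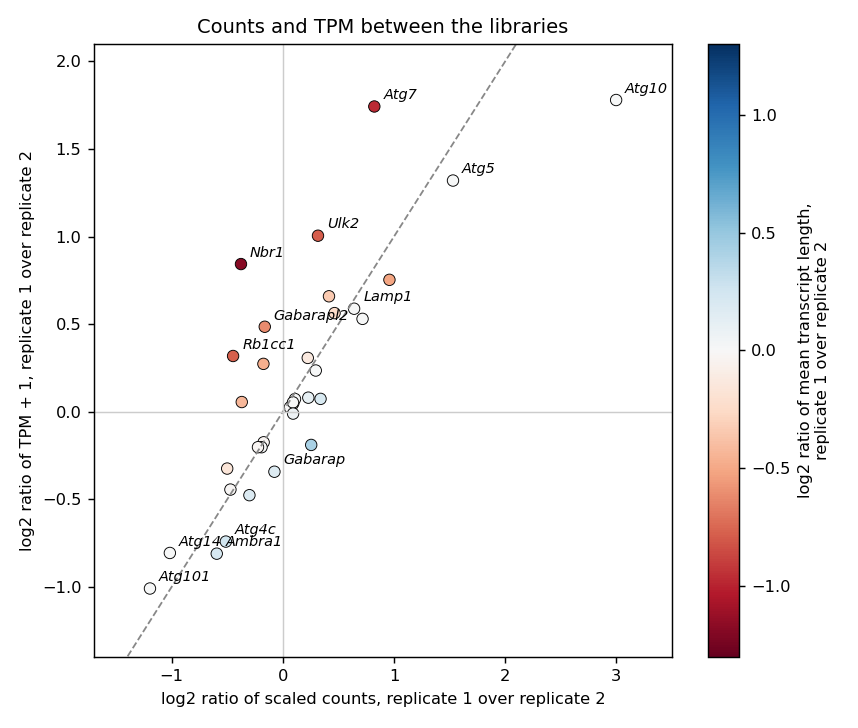
Log2 ratio of TMM-scaled counts (horizontal) against log2 ratio of TPM plus 1 (vertical), replicate 1 over replicate 2, for 36 genes; colour gives the log2 ratio of mean transcript length and the dashed line marks equality. Map1lc3a, with 0 counts in replicate 1, is left out. Genes above the line in red (Atg7, Nbr1, Ulk2, Rb1cc1) had shorter mean lengths in replicate 1.

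Most of these genes kept the same top transcript in both libraries, but transcript shares differed in most of those tested. Of the 26 genes with 2 or more transcripts, 24 had 50 or more counts in each library, and the share of the leading transcript differed in 21 of those 24, or 87.5%, by Fisher's exact test (two-sided, Benjamini-Hochberg), where 77.0% of 7354 genes were called. That test runs on estimated transcript counts of 1 library against 1 and covers counting error only, not the error of assigning reads to transcripts or the spread between pools, while the shares given are of TPM. The transcript with the highest share was the same in both libraries in 14 of the 24 and another in each in 10, where 40.3% of all genes tested had another in each. In Atg7, Atg7-211, a processed transcript of 590 bases, took 68.5% of the gene's TPM in replicate 1 and 0 in replicate 2. In Ulk2, the processed transcript Ulk2-203 took 49.8% in replicate 1, while the coding Ulk2-201 took 38.5% there and 79.9% in replicate 2. In Ambra1, the coding Ambra1-201 took 52.0% in replicate 1 and 1.18% in replicate 2.

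Transcripts not annotated as protein-coding also held a large share in several genes. In Gabarapl2, the retained-intron transcript Gabarapl2-203 took 92.9% of TPM in replicate 1 and 46.0% in replicate 2. In Pik3c3, Pik3c3-204, annotated for nonsense-mediated decay, took 36.0% and 64.1%. Becn1-201, with the same annotation, took 40.8% and 41.6%. By contrast Sqstm1 and Wipi1 were at 100% coding in both libraries, and Map1lc3b at 99.9% and 96.8%. Over the 24 genes tested, the median share of TPM in protein-coding transcripts was 67.7% in replicate 1 and 64.1% in replicate 2. Over the nuclear protein-coding genes among the 7354 tested, it was 85.2% and 85.7%. Among the genes with 2 or more transcripts, 9 were under 50% coding in replicate 1, 7 in replicate 2 and 3 in both (Becn1, Atg4b and Wipi2). The library kept total RNA, and the part of unspliced RNA in these shares was not tested.

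**Figure D5:**
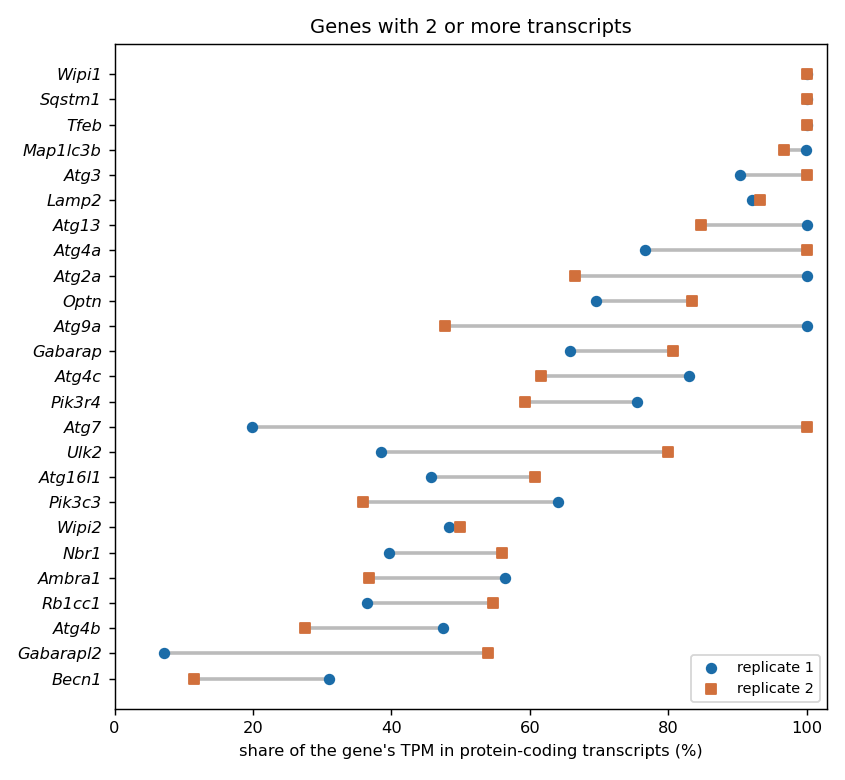
Share of each gene's TPM assigned to protein-coding transcripts in replicate 1 (circles) and replicate 2 (squares), for 25 genes with 2 or more transcripts; where the values coincide the square covers the circle, and Map1lc3a, with no counts in replicate 1, is left out. Becn1 is lowest on average at 31.0% and 11.5%, and Atg7 spans 19.8% to 100%.

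Some reads could belong to neighbours. Exons of 10 of the 37 genes overlap an exon of another gene on the opposite strand, and the sources used here do not say whether counting used strand. The share of all genes with such an overlap was not counted. The longest such overlaps were 3104 bases of Becn1 with Cntd1 (19 and 65 counts) and 1405 bases of Atg4d with Kri1 (1376 and 1010 counts). Kri1 had several times the counts of Atg4d (223 and 138), so the level of Atg4d is uncertain. Lamp1 shares 249 bases with Grtp1 (60 and 30 counts), far fewer reads than its own. Expected counts were whole numbers (within 0.005) for all 37 genes in replicate 1 and for 36 in replicate 2. The exception was Map1lc3b at 1215.5. Among nuclear protein-coding genes with counts, 92.1% had whole numbers in replicate 1 and 91.9% in replicate 2. Few reads of the 37 genes were thus divided between genes, as for most genes.

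Most genes listed for the rest of the pathway were detected as well. For the counts of each list below, 44.9% of all nuclear protein-coding genes were detected in both libraries. Of all genes in the binomial test, 37.5% were called higher in replicate 1 and 40.7% lower. All 12 other core factors were detected in both libraries, led by Vmp1, which works in autophagosome formation at the endoplasmic reticulum, at 65.0 TPM in replicate 1 and 51.5 in replicate 2; 5 were called higher in replicate 1 and 5 lower. Of 18 other selective receptors, 17 were detected, with 7 called higher and 7 lower. Phb2, a mitochondrial inner membrane receptor, had 141.8 and 163 TPM, Fkbp8 59.8 and 70.6, and Tax1bp1 52.9 and 54.5. Bnip3l, the receptor known for clearing mitochondria from red cells, had 65.8 and 51.7.

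Among 25 genes of the mTORC1 and AMPK inputs, 22 were detected, 7 called higher and 10 lower in replicate 1. The AMPK subunit gene Prkab1 had 39.0 and 44.8 TPM. Rragd and Prkag3 had 0 counts in both libraries, and Prkaa2 had 0 and 50 counts. Of 14 matched genes for fusion with lysosomes, 13 were detected, 3 called higher and 9 lower. Vamp8, a SNARE of the lysosome side, had 89.0 and 169.5 TPM, and Vps16, a subunit of the HOPS tether, 94.1 and 101.7. The TPM of Vps16 came from 1302 and 1199 counts at short mean transcript lengths of 818.5 and 736.9 bases, on which its level depends.

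The transcription factors were uneven. Of 6 MiT/TFE and FOXO genes, 4 were detected in both libraries, 4 called higher and 2 lower in replicate 1. Foxo3, a FOXO factor known for activating autophagy genes in muscle, had 26.7 and 22.3 TPM. Tfe3, a factor of the same family as Tfeb, had 16.4 and 7.91, above Tfeb in each library. Mitf had 0 and 1.12 TPM, and Tfec 1.79 and 0.06. Of 17 genes of the lysosomal proton pump, 16 were detected, 6 called higher and 7 lower. Atp6v1f had 70.9 and 70.1 TPM, and Atp6v0d2, an isoform known from osteoclasts, had 1 and 0 counts. All 10 lysosomal membrane genes were detected, with 5 called higher and 2 lower, led by Laptm5 of blood cells at 121.5 and 142 TPM.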

How the data were processed

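Per the labels, 2 pools of 100 CMP gave total RNA libraries (mm10; GENCODE M4 per the authors' notes deposited with the tables). The authors deposited expected counts and TPM per gene and transcript, with the column layout of RSEM, and each transcript's percent of its gene's TPM. The deposited expected counts divide shared reads between genes and were rounded for tests. The deposited TPM are per 1000000 over all entries, including 26345 tRNA, spike-in and phiX entries that were set apart here. Deposited FPKM were not used. No aligner or quantifier is named in the sources used here.

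Of 43346 gene identifiers, 42462 matched GENCODE M21 (GRCm38) once versions were dropped; of 194 listed symbols, 1 was unmatched (Vamp7). Members, lists and pairs were chosen with earlier results of these data known. All 37 members may be named, with the 4 highest of each other list and up to 4 below 1 TPM in both libraries; Mitf and Tfec were added after their values were seen. Library tests took the 13616 genes that reached 10 counts in either library, with TMM in edgeR 4.0.16 (R 4.3.3). They compare 2 libraries, not conditions. The common dispersion, estimated from these same libraries taken as 1 group, was 0.576. Pairs were tested with limma 3.58.1, intercept only, on log2(TPM + 1) minus that of the second gene, with a variance trend and Benjamini-Hochberg adjustment over 11655 protein-coding genes at 0.05. Tested on simulated data, this fit of the ratios called too many equal pairs, since the second gene's deviation is shared. A pair is therefore called only where a fit with the spread of both genes passed too. The fit with the spread of both genes was run on whole-gene TPM at the main settings alone. Results under other settings, protein-coding transcripts included, come from the fit of the ratios. The fit with the spread of both genes and the TPM of protein-coding transcripts were added after seeing the data. The 95% intervals use the spread of both genes. Fisher's exact test (SciPy 1.17.1) took genes that have several transcripts and reach 50 counts in both libraries. Other thresholds, scalings, minimums, pseudocounts and left-out libraries were tried. Promoter windows come from RefSeq.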

Additional observations from a re-analysis of the deposited data

How the results depend on the processing

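The number of members detected kept within 29 to 36 under other thresholds (0.5, 2 and 5 TPM), posterior mean TPM, TPM rescaled over protein-coding genes and protein-coding transcripts, and was 35 and 36 without replicate 1 and without replicate 2. The median of 12.5 TPM was 32.45 after rescaling over protein-coding genes and 8.01 over protein-coding transcripts, and ranged from 11.5 to 13.4 TPM with a replicate left out. Members higher in replicate 1 fell to 8 under total-count scaling. Members higher or lower fell to 0 in edgeR's exact test, whose dispersion came from the same libraries that it compared. No test is possible with 1 library left. Total-count scaling turned the log2 ratios of replicate 1 over replicate 2 to -0.109 for Ulk1, -0.092 for Atg2b, -0.109 for Wipi2, -0.107 for Atg12, -0.122 for Gabarapl1 and -0.138 for Sqstm1. Pairs that passed were between 13 and 15 except over protein-coding transcripts, where 7 did. Signs turned without length correction for Atg7 over Atg3 (-0.241), Nbr1 over Sqstm1 (0.251) and Optn over Sqstm1 (0.689), with posterior mean TPM for Nbr1 over Sqstm1 (0.068), and over protein-coding transcripts for Wipi2 over Wipi1 (-0.030), Pik3r4, Uvrag and Ambra1 over Becn1 (0.101, 0.514 and 0.493) and Atg7 over Atg3 (-0.776). The cause was not tested. Leading transcripts called stayed between 17 and 22. No paired analysis was possible because the series holds 1 group. Genes at 0 counts are limited by depth.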
